A study of Homo sapiens with 9 samples.

Results

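The genes that encode histone methylation and acetylation enzymes were examined in hCMEC/D3 cells, an immortalised line of human endothelial cells from brain microvessels that serves as a blood-brain barrier model in culture. They were taken as every listed gene whose symbol begins with KDM, KMT, SETD, HDAC or KAT followed by a digit, which gave 53 of 15570 listed genes. The OGD/R group (n = 3 libraries) had been deprived of oxygen and glucose for 4 h and then kept for 16 h in normal medium under 21% O2 and 5% CO2. The OGD group (n = 3) was taken after the 4 h deprivation alone, for which medium without glucose and an atmosphere of 95% N2 and 5% CO2 were used, and the control group (n = 3) was not deprived. All 9 libraries came from this 1 line, and nothing in the labels says that the libraries of a group came from separate cultures, so a p-value here sets a difference against the spread among these samples alone, and that spread may be technical.

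Histone tails carry methyl and acetyl groups that are written by methyltransferases (KMT and SETD genes) and acetyltransferases (KAT genes), and erased by demethylases (KDM genes) and deacetylases (HDAC genes). The demethylases KDM2 to KDM8 share a JmjC domain, and the active ones use molecular oxygen, iron and 2-oxoglutarate to oxidise the methyl group. KDM1A and KDM1B work by another chemistry, with a flavin cofactor that also passes electrons to oxygen. The members were therefore set out as 15 genes of KDM2 to KDM8 and 38 other enzymes. Some SETD members act on proteins other than histones, and enzymes with other names (EZH2, EP300, the sirtuins) fall outside the choice and are given as companion lists.

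Expression was in FPKM (fragments per kilobase of transcript, relative to the fragments mapped in the library), as deposited by the authors. The read depth per library is unknown. A gene was tested if 3 or more libraries had 1 FPKM or more, which kept 10818 genes and 48 members (13 of KDM2 to KDM8 and 35 others). Log2 fold changes are those of FPKM + 1, which understates the change of low genes, and a call is an adjusted p under 0.05 by limma with Benjamini-Hochberg adjustment over all genes tested. The 5 untested members were KDM4D, KDM7A, HDAC4, KMT2C and KMT2D, and KDM6B and SETD1B passed the filter through OGD/R libraries alone. KMT2B reached 1 FPKM in 3 OGD/R libraries, 1 OGD library and 1 control library, so it also needed its OGD/R values to pass. KAT6B reached it in 2 OGD/R libraries, 0 OGD libraries and 2 control libraries, so it needed its OGD/R values as well. The 3 comparisons share libraries in pairs, so none is independent of the others.

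The whole table was not level between groups. FPKM summed to between 442696 and 449248 in OGD/R libraries, 585947 and 605818 in OGD libraries, and 454237 and 537878 in control libraries. Over all genes tested the median log2 fold change was -0.31 in OGD against control, 0.39 in OGD/R against OGD, and 0.07 when OGD/R was set against control. Of all calls, 19.4%, 75.4% and 59.9% were in the higher direction in those 3 comparisons, against 53.4%, 48.8% and 49.0% after median-of-ratios scaling of the libraries. Each member's call was therefore checked under 3 other scales, median-of-ratios scaling, quantile normalization, and removal of the trend of log2 values on transcript length within each library. Among the endothelial markers, MCAM and ENG were expressed, but PECAM1 and CDH5 reached at most 2.62 FPKM and VWF, KDR and CLDN5 stayed at or near 0. Of the 12 endothelial markers 4 were tested, and the list summed to 91.3 to 109 FPKM in OGD/R libraries, 28.2 to 31.1 in OGD libraries and 37.3 to 48.9 in control libraries. Of the 8 pericyte and fibroblast markers 6 were tested, with sums of 64.7 to 83.0, 14.1 to 14.6 and 26.4 to 38.9 FPKM in the same order. COL1A1 and COL1A2 averaged 29.3 and 26.9 FPKM in OGD/R libraries, 2.24 and 4.2 in OGD libraries and 6.29 and 12.2 in control libraries. By mean, LUM was highest in control (4.35) and RGS5 in OGD (2.21). Of the 3 leukocyte markers, PTPRC was at or near 0 and CD68 was tested, with list sums of 25.7 to 27.2 FPKM in OGD/R libraries, 20.6 to 21.7 in OGD libraries and 17.2 to 20.6 in control libraries. No epithelial or glial and neuronal marker was tested. The endothelial and pericyte and fibroblast sums, like most members, were highest in OGD/R and lowest in OGD, while the leukocyte sum was lowest in control, and the part of these markers in the results was not tested.

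On the deposited scale, most histone enzyme messages were lower after deprivation and higher after reoxygenation. The median shift was larger in KDM2 to KDM8 than in the other enzymes pooled, though not than in each family among them. In OGD against control, 0 of the 13 tested KDM2 to KDM8 genes were called higher and 10 lower, and of the 35 other enzymes 2 were called higher and 20 lower. Over all genes tested 58.0% were called, 11.3% higher and 46.7% lower. The median log2 fold change was -0.59 in KDM2 to KDM8 and -0.38 in the other enzymes, against -0.31 over all genes. After reoxygenation (OGD/R against OGD), 12 of 13 KDM2 to KDM8 genes were called higher and 0 lower, and of the others 26 were called higher and 2 lower, where 70.7% of all genes were called, 53.3% higher and 17.4% lower. The medians were 1.19 in KDM2 to KDM8, 0.67 in the other enzymes and 0.39 over all genes. Relative to control, OGD/R had 9 of 13 KDM2 to KDM8 genes called higher and 0 lower, and of the others 13 higher and 2 lower, where 41.2% of all genes were called, 24.7% higher and 16.5% lower. Here the medians were 0.57, 0.22 and 0.07 in the same order. Relative to the all-gene median, KDM2 to KDM8 thus stood at -0.28, 0.80 and 0.50 in the 3 comparisons, and the other enzymes at -0.07, 0.28 and 0.15. Among the others, medians in OGD against control were -0.74 in HDAC class I, -0.68 in KDM1 and -0.64 in KMT5. The remaining HDAC genes were at -0.62, KMT2 and SETD1 at -0.31, KAT at -0.17 and the remaining SETD genes at -0.12. In OGD/R against OGD and against control, KMT2 and SETD1 had 1.25 and 0.72, with SETD1B and KMT2B included. Each other family lay below KDM2 to KDM8 in both. KDM6B and SETD1B, which passed the filter only through the group where they are high, had to differ there, and without them 11 of 12 KDM2 to KDM8 genes and 25 of 34 others were called higher in OGD/R against OGD, and 8 of 12 and 12 of 34 in OGD/R against control. The class medians without them were 1.17 and 0.66 in OGD/R against OGD, and 0.56 and 0.21 in OGD/R against control. KMT2B and KAT6B, which also needed their OGD/R values to pass, stayed among the others in these counts and medians. KAT6B was called higher in OGD/R against OGD (0.56, adjusted p = 0.0294, limma) and was not called in OGD/R against control. In each direction where KDM2 to KDM8 had 0 calls by limma, 0 of the 13 also had an unadjusted p under 0.05. No test compared the classes, because members of a class are not replicates of it.

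**Figure D1:**
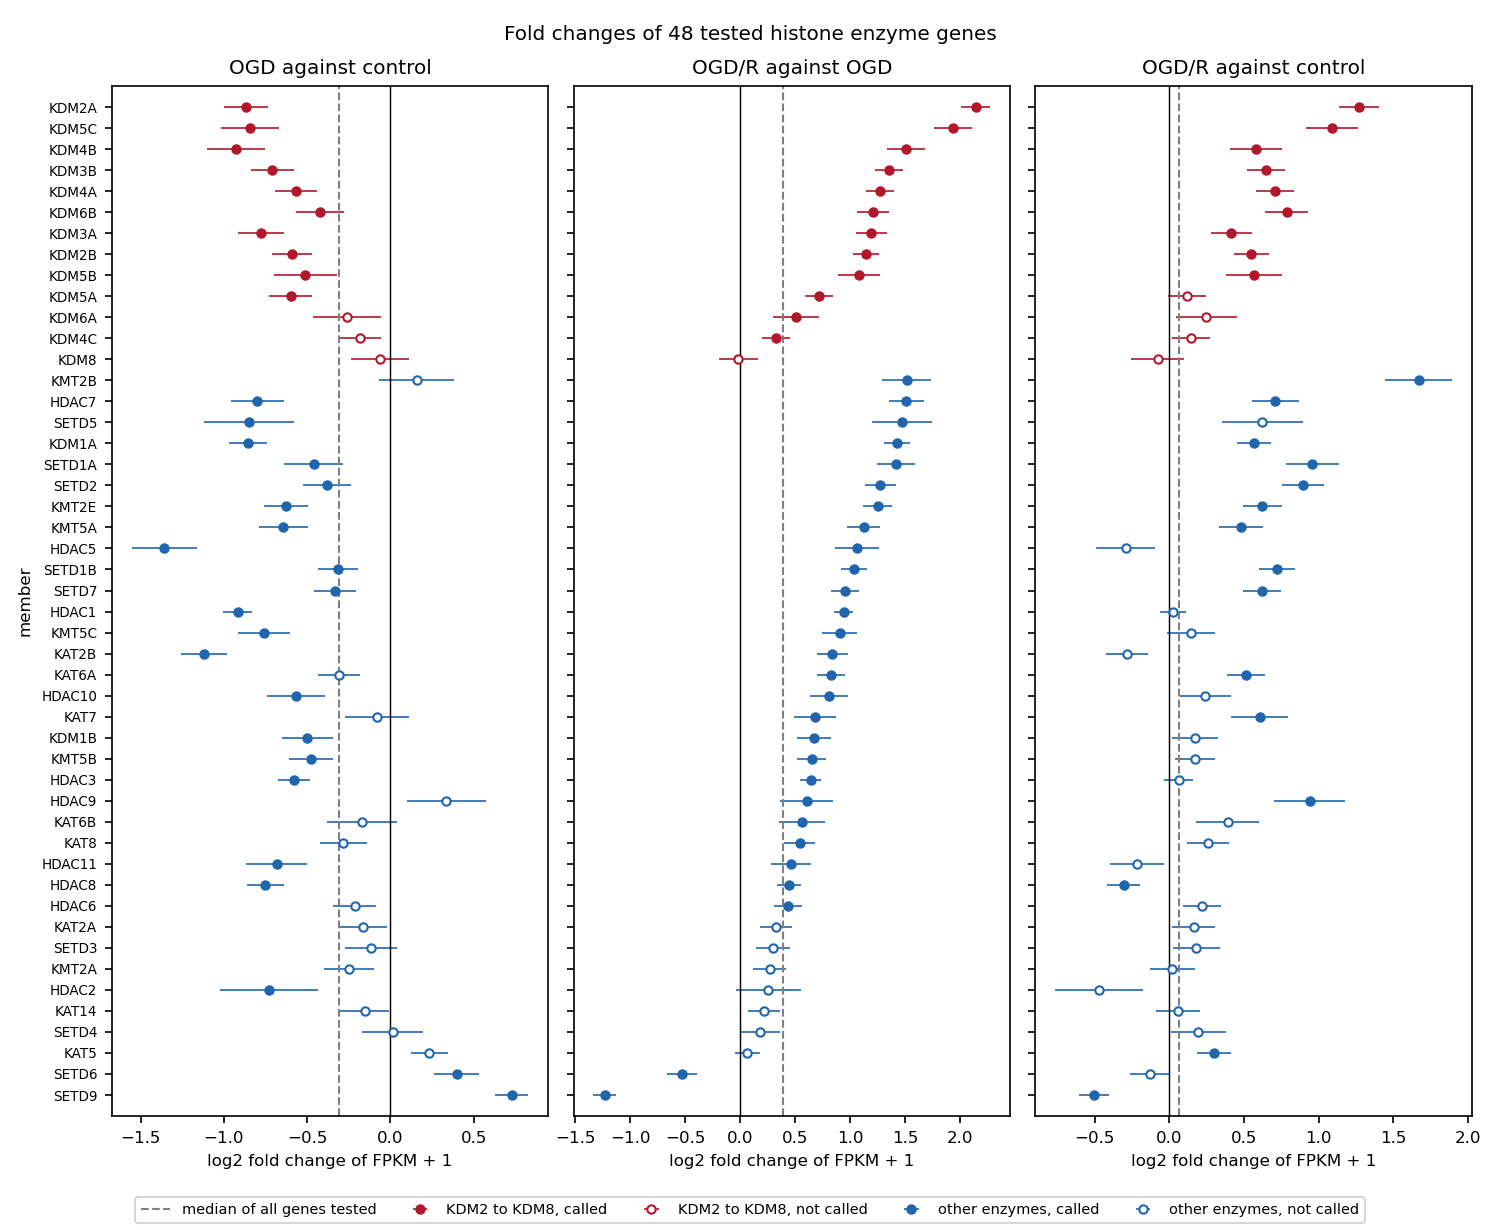
Log2 fold change of FPKM + 1 with its standard error (bars) for each of the 48 tested members, in the comparison of OGD with control and in those of OGD/R with OGD and with control, with filled points for calls and a dashed line at the median of all genes. KDM2A stood highest of the members in OGD/R against OGD at 2.14, KMT2B in OGD/R against control at 1.67, and SETD9 ran opposite to most members.

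Many of these calls rested on the scale. Of the 10 KDM2 to KDM8 genes called lower in OGD, 4 kept the call under all 3 other scales (KDM2A, KDM3B, KDM4B and KDM5C), or 30.8% of those tested, and of the 20 others 7 kept it (HDAC1, HDAC5, HDAC7, HDAC8, KAT2B, KDM1A and KMT5C), or 20% of those tested. The matching share of all genes was 15.6%. Of the 12 KDM2 to KDM8 genes called higher in OGD/R against OGD, 8 kept the call (61.5% of those tested), and of the 26 others 12 kept it (34.3%), against 22.1% of all genes. Of the higher calls in OGD/R against control, those of 6 of 9 KDM2 to KDM8 genes (46.2%) and 11 of 13 others (31.4%) were kept, against 17.4% of all genes. Without KDM6B and SETD1B, 7 of 11 and 11 of 25 higher calls were kept in OGD/R against OGD. In OGD/R against control 5 of 8 and 10 of 12 were kept. KMT2B is still counted in both comparisons, and KAT6B among the 25 higher calls in OGD/R against OGD. In the directions with few calls, SETD6 and SETD9 kept the higher call in OGD against control (8.93% of all genes did) and the lower call in OGD/R against OGD (13.1% of all genes), and HDAC8 and SETD9 kept the lower call in OGD/R against control (12.3% of all genes). The difference between the class medians, KDM2 to KDM8 minus the others, was -0.22, 0.53 and 0.35 on the deposited scale and -0.13, 0.37 and 0.20 with the length trend removed, with no change of sign under any of the 3 scales. Leaving out a library mattered most for OGD/R against control, where KDM2 to KDM8 had 5 higher calls without OGD/R replicate 2 or 3, and all members had 14 in place of 22 without OGD/R replicate 2, with 46 members tested. Without OGD replicate 2, the other enzymes had 13 lower calls in OGD against control.

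KDM2A and KDM2B remove methyl groups from H3K36 and bind unmethylated CpG islands, and KDM2A had the largest log2 fold change of FPKM + 1 of the tested members in OGD/R against OGD. By the ratio of mean FPKM it stood at 7.11, under KDM6B at 9.95 and SETD1B at 7.14. KDM2A (chr11:67119263-67258082, GRCh38.p14) had 8.19, 9.42 and 9.03 FPKM in OGD/R libraries, 1.47, 0.997 and 1.28 in OGD libraries and 2.70, 3.20 and 3.40 in control libraries. The 3 groups did not overlap, and the reoxygenated libraries lay far above the rest. Its log2 fold change was -0.87 (SE 0.13, adjusted p = 0.000261, limma) in OGD against control, 2.14 (SE 0.13, adjusted p = 1.37e-07) in OGD/R against OGD and 1.27 (SE 0.13, adjusted p = 3.96e-05) in OGD/R against control. The rise over OGD placed it at percentile 99.4 of all genes tested. KDM2B had 7.19, 7.11 and 7.94 FPKM in OGD/R libraries, 3.02, 2.62 and 2.78 in OGD libraries and 5.05, 4.92 and 4.27 in control libraries. The groups were again separate, with log2 fold changes of -0.59 (SE 0.12, adjusted p = 0.00142) in OGD against control, 1.14 (SE 0.12, adjusted p = 5.01e-06) in OGD/R against OGD and 0.55 (SE 0.12, adjusted p = 0.00336) in OGD/R against control. KDM2B overlaps the coding gene RNF34, and whether strand was used in counting is not given in the sources used here, so its value is uncertain. Quantile normalization (adjusted p = 0.0995) and removal of the length trend (adjusted p = 0.219) ended its lower call in OGD. In bulk RNA, fewer cells that express a gene and less of its RNA per cell cannot be told apart.

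KDM3A and KDM4B are known from other studies as targets of the hypoxia-inducible factor HIF-1, and both remove methyl groups from H3K9. After 4 h of deprivation both messages were lower than in control cells, KDM3A not under every scale. KDM3A had 11.8, 10.99 and 12.02 FPKM in OGD/R libraries, 4.46, 4.56 and 4.48 in OGD libraries and 10.5, 6.82 and 8.36 in control libraries. The OGD libraries were nearly identical and lay below every control library, and the OGD/R libraries lay above them all. The log2 fold change was -0.78 (SE 0.14, adjusted p = 0.000628, limma) in OGD against control, a call lost with the length trend removed (-0.34, adjusted p = 0.0649), and 1.19 (SE 0.14, adjusted p = 1.03e-05) in OGD/R against OGD. Against control the OGD/R libraries gave 0.42 (SE 0.14, adjusted p = 0.0296), a call that was lost without any 1 of the OGD/R libraries or without control replicate 2 or 3 (adjusted p from 0.051 to 0.1) and under all 3 other scales. KDM4B had 4.03, 5.75 and 5.14 FPKM in OGD/R libraries, 0.947, 1.28 and 1.04 in OGD libraries and 3.99, 2.92 and 2.18 in control libraries. Its groups did not overlap, although the highest control library came close to the lowest OGD/R library. The log2 fold change was -0.92 (SE 0.17, adjusted p = 0.000953) in OGD against control, 1.51 (SE 0.17, adjusted p = 1.07e-05) in OGD/R against OGD and 0.58 (SE 0.17, adjusted p = 0.0188) in OGD/R against control. That last call was lost without OGD/R replicate 2 or 3 or control replicate 3 (adjusted p from 0.0596 to 0.0815) and after length trend removal (adjusted p = 0.0584). The relatives KDM3B and KDM4A followed the same order, with means of 7.30 ± 0.958 and 8.44 ± 0.609 FPKM in OGD/R libraries, 2.23 ± 0.0677 and 2.91 ± 0.192 in OGD libraries and 4.29 ± 0.447 and 4.81 ± 0.684 in control libraries (SD, n = 3).

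Promoter sequences are shown for KDM2A, the member with the largest log2 fold change in OGD/R against OGD, and for KDM3A and KDM4B, the HIF-1 targets named above. Each is a window from 250 bases before to 50 after a transcript start in RefSeq (GRCh38.p14, plus strand). It is the first window listed for the gene, of 2 for KDM2A, 2 for KDM3A and 1 for KDM4B. The windows lie at chr11:67119013-67119312 for KDM2A, chr2:86441121-86441420 for KDM3A and chr19:4968863-4969162 for KDM4B. Capitals mark matches on either strand to ACGTG or GCGTG, the core letters of a hypoxia response element.
KDM2A: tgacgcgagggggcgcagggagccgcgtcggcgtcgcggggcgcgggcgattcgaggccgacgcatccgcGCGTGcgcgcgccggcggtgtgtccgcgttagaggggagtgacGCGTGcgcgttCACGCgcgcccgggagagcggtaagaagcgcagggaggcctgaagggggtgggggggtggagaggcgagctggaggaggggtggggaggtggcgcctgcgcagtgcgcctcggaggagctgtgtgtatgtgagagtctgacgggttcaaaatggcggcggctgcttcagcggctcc
KDM3A: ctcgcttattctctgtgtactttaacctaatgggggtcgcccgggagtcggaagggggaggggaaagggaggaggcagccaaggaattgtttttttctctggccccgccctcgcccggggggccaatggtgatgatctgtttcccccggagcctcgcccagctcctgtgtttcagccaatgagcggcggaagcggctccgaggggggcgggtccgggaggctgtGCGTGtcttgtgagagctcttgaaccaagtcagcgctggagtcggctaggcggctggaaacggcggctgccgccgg
KDM4B: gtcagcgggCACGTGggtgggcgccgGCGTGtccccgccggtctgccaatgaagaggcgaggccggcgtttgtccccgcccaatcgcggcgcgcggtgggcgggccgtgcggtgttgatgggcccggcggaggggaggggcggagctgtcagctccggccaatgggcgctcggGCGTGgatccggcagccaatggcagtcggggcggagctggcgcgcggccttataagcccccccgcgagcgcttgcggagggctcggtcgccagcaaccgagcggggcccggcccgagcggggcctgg
KDM2A held 3 matches, KDM3A 1 and KDM4B 4, and in KDM4B the matches of opposite strands overlap in the palindrome CACGTG. Of 15 KDM2 to KDM8 genes with a window, 12 held at least 1 match (80.0%), against 19 of 34 other enzymes (55.9%) and 5785 of 8999 tested genes with a window (64.3%). A match says only that these letters are in the window.

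KDM4C showed smaller differences than its relatives. It had 3.48, 3.88 and 3.58 FPKM in OGD/R libraries, 3.01, 2.73 and 2.40 in OGD libraries and 3.30, 3.44 and 2.87 in control libraries. OGD overlapped control, with a log2 fold change of -0.18 (SE 0.13, adjusted p = 0.231, limma). With the length trend removed, KDM4C was called higher in OGD against control (0.26, adjusted p = 0.0481). The value for OGD/R against OGD was 0.33 (SE 0.13, adjusted p = 0.0337), which lies under the all-gene median of 0.39, and the direction turned under all 3 other scales (-0.03, -0.26 and -0.31). The call was also lost without OGD/R replicate 2 or 3 or OGD replicate 2 or 3 (adjusted p from 0.0765 to 0.141). Between OGD/R and control it was 0.15 (adjusted p = 0.372). KDM4D was untested, at 0.851, 0.423 and 0.993 FPKM in OGD/R libraries, 0.259, 0.155 and 0.288 in OGD libraries and 0.758, 0.796 and 0.540 in control libraries.

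The KDM5 enzymes remove methyl groups from H3K4, a mark of active promoters, and they differed from each other. KDM5C had 12.2, 15.0 and 14.8 FPKM in OGD/R libraries, 2.94, 2.83 and 2.98 in OGD libraries and 7.996, 6.31 and 4.28 in control libraries. The groups did not overlap and the OGD libraries were close together, while the control libraries spread widely. The log2 fold change was -0.84 (SE 0.17, adjusted p = 0.00156, limma) in OGD against control, 1.93 (SE 0.17, adjusted p = 1.59e-06) in OGD/R against OGD and 1.09 (SE 0.17, adjusted p = 0.000483) in OGD/R against control. KDM5A had 3.81, 4.31 and 4.38 FPKM in OGD/R libraries, 2.30, 2.27 and 1.88 in OGD libraries and 3.73, 4.19 and 3.38 in control libraries. Only the OGD libraries stood apart, and OGD/R overlapped control. KDM5A fell in OGD by 0.60 on the log2 scale (SE 0.13, adjusted p = 0.00196) and rose in OGD/R against OGD by 0.72 (SE 0.13, adjusted p = 0.000292), and both calls were lost after quantile normalization and length trend removal (adjusted p from 0.0945 to 0.688). Between OGD/R and control its value was 0.12 (adjusted p = 0.482), and KDM5A overlaps TAS2R45 on the genome. KDM5B had 4.92, 5.94 and 4.95 FPKM in OGD/R libraries, 2.92, 1.55 and 1.59 in OGD libraries and 2.81, 4.20 and 2.77 in control libraries. OGD replicate 1 lay inside the control range, and OGD/R lay above both groups. KDM5B rose in OGD/R against OGD by 1.08 (SE 0.19, adjusted p = 0.000247), a call lost with the length trend removed (adjusted p = 0.0514). Its calls in OGD against control (-0.51, adjusted p = 0.0339) and OGD/R against control (0.57, adjusted p = 0.0287) were lost under all 3 other scales, the first also without OGD replicate 2 or 3 or control replicate 2 (adjusted p from 0.125 to 0.131), and the second without OGD/R replicate 2 or 3 or control replicate 1 or 3 (adjusted p from 0.0555 to 0.106).

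KDM6A and KDM6B remove methyl groups from H3K27, the mark laid down by Polycomb repressive complex 2. KDM6B, an inducible enzyme in many cell types, had 1.39, 1.87 and 1.91 FPKM in OGD/R libraries, 0.176, 0.113 and 0.231 in OGD libraries and 0.695, 0.750 and 0.313 in control libraries. It crossed 1 FPKM only in OGD/R libraries, and the 3 groups did not overlap. The ratio of mean FPKM was 9.95 in OGD/R over OGD and 2.94 in OGD/R over control, and the log2 fold changes were 1.21 and 0.79, given as a description since the filter kept the gene for its OGD/R values. KDM6B overlaps the predicted coding gene LOC124904106. Its lower call in OGD (-0.42, adjusted p = 0.0245, limma) was lost without OGD replicate 1 or 2 or control replicate 1 or 2 (adjusted p from 0.0594 to 0.0839), and the direction turned with the length trend removed (0.01). KDM6A had 5.87, 8.85 and 7.30 FPKM in OGD/R libraries, 4.95, 6.82 and 3.19 in OGD libraries and 6.68, 5.495 and 5.71 in control libraries. All 3 groups overlapped. Its 1 call, in OGD/R against OGD (0.51, SE 0.21, adjusted p = 0.0413), was lost without OGD/R replicate 2 or 3 or OGD replicate 1 or 3 (adjusted p from 0.0708 to 0.213) and turned in direction after quantile normalization (-0.05) and length trend removal (-0.17). KDM6A gave -0.26 (adjusted p = 0.289) in OGD against control and 0.25 (adjusted p = 0.353) in OGD/R against control. KDM8, a JmjC protein with arginine hydroxylase activity, was not called in any comparison on the deposited scale. It had 1.08 ± 0.176 FPKM in OGD/R libraries, 1.13 ± 0.480 in OGD libraries and 1.21 ± 0.368 in control libraries. After quantile normalization KDM8 was called lower in OGD/R against OGD (-0.50, adjusted p = 0.038, limma). KDM7A was untested and did not exceed 0.395 FPKM in any library.

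**Figure D2:**
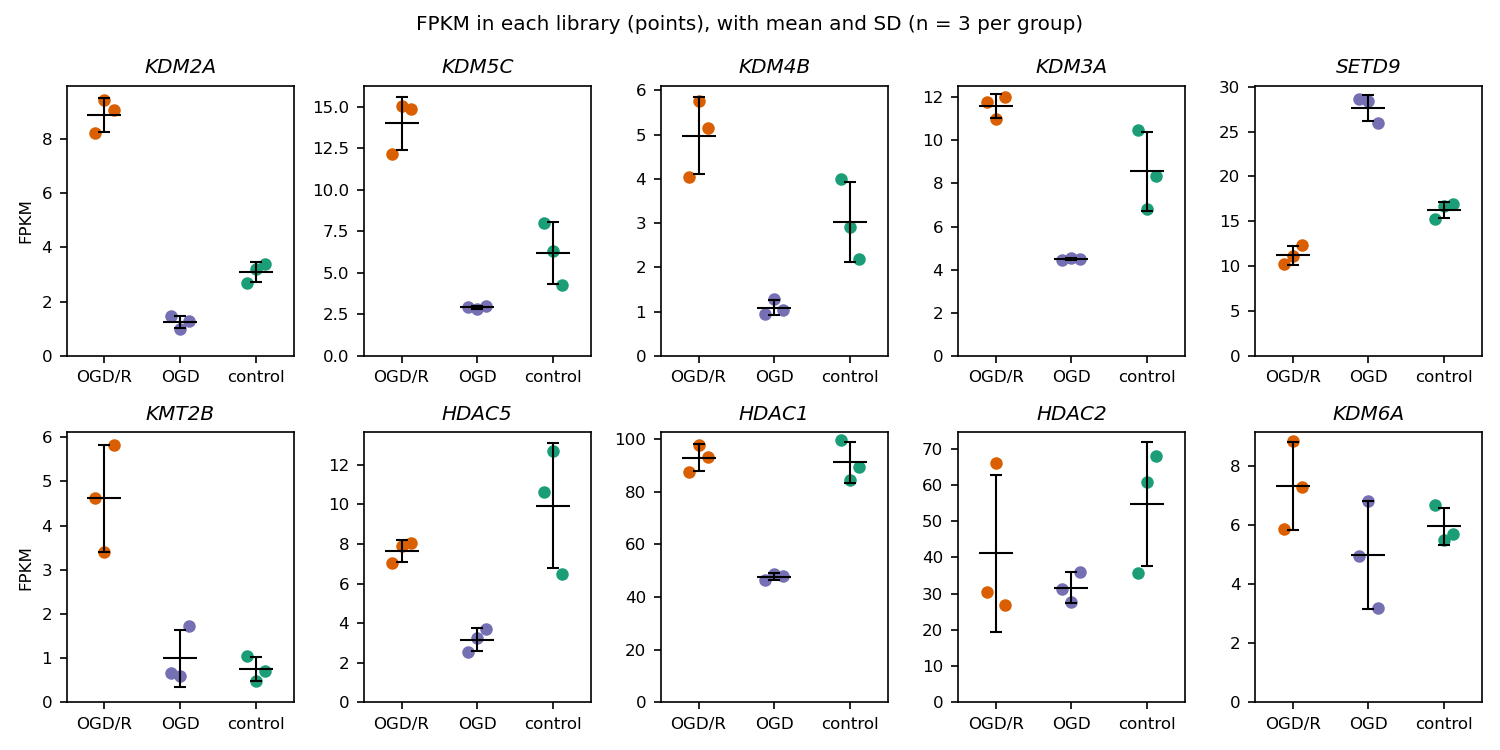
FPKM of 10 members in each library (points), with the mean and SD of each group (n = 3), for OGD/R, OGD and control. KDM2A reached 9.42 FPKM in OGD/R and at most 1.47 in OGD, SETD9 was highest in OGD at 25.9 to 28.6 FPKM, and HDAC2 and KDM6A spread within groups as widely as between them.

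Among the flavin-dependent demethylases, KDM1A, the subunit that removes H3K4 methyl groups in CoREST complexes, was called in all 3 comparisons. Its mean was 32.4 ± 4.59 FPKM in OGD/R libraries, 11.4 ± 0.521 in OGD libraries and 21.5 ± 2.08 in control libraries (SD, n = 3). KDM1A had log2 fold changes of -0.86 (adjusted p = 0.000107, limma), 1.42 (adjusted p = 7.77e-07) and 0.57 (adjusted p = 0.0021) in the 3 comparisons, and each call held under all 3 other scales. It overlaps LUZP1. KDM1B was lower in OGD (-0.50, adjusted p = 0.0148) and higher in OGD/R against OGD (0.67, adjusted p = 0.00186), neither of which held under every scale.

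The KMT2 and SETD1 enzymes write H3K4 methylation in COMPASS complexes. Leaving out SETD1B, which passed the filter only through OGD/R libraries, 3 of 4 tested genes of this family were called higher in OGD/R against OGD (53.3% of all genes were) and 3 of 4 in OGD/R against control (24.7%), and all of those calls held under the 3 other scales (22.1% and 17.4% of all genes). KMT2B is among those called higher in both comparisons, and it too was tested only because of its OGD/R values. It reached 1 FPKM in 3 OGD/R libraries, 1 OGD library and 1 control library, so these counts rest in part on the filter. In OGD against control 0 of the 4 genes were called higher and 2 lower (46.7% of all genes), and neither lower call held under every scale. KMT2B (chr19:35718003-35738878, GRCh38.p14, overlapping IGFLR1) had 4.61, 3.40 and 5.83 FPKM in OGD/R libraries, 0.667, 0.588 and 1.74 in OGD libraries and 1.04, 0.495 and 0.711 in control libraries. The OGD/R libraries lay above all others, and OGD overlapped control. It rose by 1.51 (SE 0.22, adjusted p = 6.8e-05, limma) in OGD/R against OGD and by 1.67 (SE 0.22, adjusted p = 0.00016) in OGD/R against control, at percentile 99.8 of all genes, and its value in OGD against control was 0.16 (adjusted p = 0.56). SETD1A had 3.37, 4.59 and 4.01 FPKM in OGD/R libraries, 0.850, 0.807 and 0.923 in OGD libraries and 2.42, 1.35 and 1.08 in control libraries. Its groups did not overlap, with log2 fold changes of 1.42 (SE 0.18, adjusted p = 1.91e-05) in OGD/R against OGD and 0.96 (SE 0.18, adjusted p = 0.00124) in OGD/R against control. The lower call of SETD1A in OGD (-0.46, adjusted p = 0.0415) was lost under all 3 other scales and without OGD/R replicate 3, any 1 of the OGD libraries or control replicate 1 (adjusted p from 0.0562 to 0.161). KMT2E (overlapping SRPK2), a family member without known methyltransferase activity, was the other of these called higher in both comparisons (1.25 and 0.62). SETD1B (overlapping RHOF) was at 1.04 and 0.72, given as a description.

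KMT2A, the founding member of the family, was not called in any comparison. It had 2.61, 2.95 and 1.93 FPKM in OGD/R libraries, 1.66, 1.88 and 2.11 in OGD libraries and 2.42, 2.85 and 2.04 in control libraries. The groups overlapped throughout, with log2 fold changes of -0.25, 0.27 and 0.02 in the 3 comparisons (adjusted p from 0.124 to 0.924, limma). KMT2C and KMT2D, which methylate H3K4 at enhancers, fell under the expression filter. KMT2D had 0.565, 0.674 and 1.10 FPKM in OGD/R libraries, 0.164, 0.170 and 0.146 in OGD libraries and 0.267, 0.246 and 0.187 in control libraries. KMT2C had 1.58, 0.818 and 1.86 FPKM in OGD/R libraries, 0.229, 0.207 and 0.212 in OGD libraries and 0.496, 0.297 and 0.499 in control libraries. In both genes the OGD/R libraries were above all others and the OGD libraries below all others.

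Of the H4K20 methyltransferases, KMT5A, KMT5B and KMT5C were all called lower in OGD and higher in OGD/R against OGD, with 1 of the 3 lower and 2 of the 3 higher calls held under every scale. Over all genes 46.7% were called lower in OGD (15.6% held) and 53.3% higher in OGD/R against OGD (22.1% held). KMT5A overlaps RILPL2. SETD2, which deposits trimethyl H3K36, had 6.18 ± 0.222 FPKM in OGD/R libraries, 1.97 ± 0.252 in OGD libraries and 2.89 ± 0.608 in control libraries (SD, n = 3). SETD2 rose by 1.27 (adjusted p = 8.17e-06, limma) in OGD/R against OGD and by 0.90 (adjusted p = 0.000488) in OGD/R against control, under every scale. Its lower value in OGD (-0.38, adjusted p = 0.0375) was not held under every scale. SETD5 and SETD7 were also called higher in OGD/R against OGD, while SETD3, an actin histidine methyltransferase, and SETD4 were not called in any comparison.

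SETD9 and SETD6 were the members called higher in OGD against control on the deposited scale. SETD9 (chr5:56909260-56928900, GRCh38.p14), a SET domain protein, had 10.2, 11.1 and 12.3 FPKM in OGD/R libraries, 28.6, 28.4 and 25.9 in OGD libraries and 15.3, 16.7 and 16.9 in control libraries. No groups overlapped, and the OGD libraries were the highest. Its log2 fold change was 0.73 (SE 0.10, adjusted p = 0.000134, limma) in OGD against control, -1.23 (SE 0.10, adjusted p = 8.88e-07) in OGD/R against OGD and -0.50 (SE 0.10, adjusted p = 0.00202) in OGD/R against control, and all of these held under every scale. SETD9 overlaps MIER3. SETD6, which methylates the NF-kB subunit RELA, had 3.56, 3.34 and 3.33 FPKM in OGD/R libraries, 5.20, 5.33 and 5.54 in OGD libraries and 4.74, 3.40 and 3.44 in control libraries. OGD lay above both other groups, and OGD/R overlapped control. It rose in OGD by 0.40 (SE 0.13, adjusted p = 0.0221) and fell in OGD/R against OGD by 0.53 (SE 0.13, adjusted p = 0.00342). Its call in OGD against control was lost without OGD replicate 2 or 3 or control replicate 2 or 3 (adjusted p from 0.0542 to 0.0733), SETD6 was not called in OGD/R against control (adjusted p = 0.456), and it overlaps CNOT1.

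**Figure D3:**
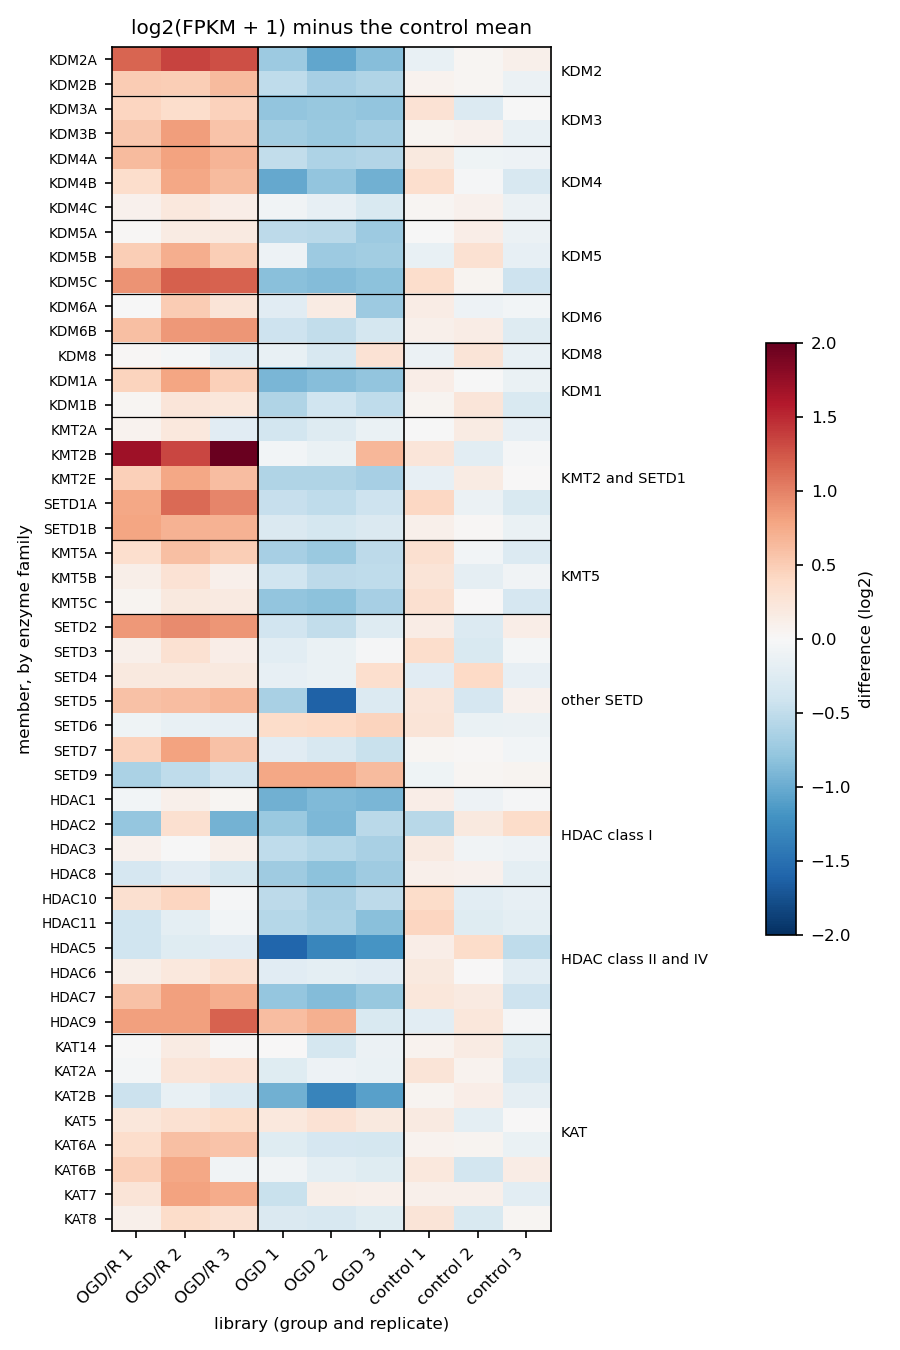
Log2(FPKM + 1) minus the control mean for the 48 tested members (rows, by enzyme family) in each library (columns, OGD/R, OGD and control replicates 1 to 3), with red above and blue below the control mean. Most rows are red in OGD/R and blue in OGD, and SETD9 shows the opposite pattern.

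Of the class I deacetylases, HDAC1, HDAC2 and HDAC3 are catalytic subunits in the Sin3, NuRD, CoREST and NCoR complexes. These 3 genes had the highest mean FPKM of all members in every group. All 4 class I genes were called lower in OGD against control, and HDAC1 and HDAC8 held this call under every scale, where 46.7% of all genes were called lower and 15.6% held the call. HDAC1 had 87.5, 97.7 and 93.2 FPKM in OGD/R libraries, 46.5, 48.8 and 47.97 in OGD libraries and 99.8, 84.5 and 89.3 in control libraries. OGD lay well below both other groups, which overlapped. HDAC1 fell in OGD by 0.92 on the log2 scale (SE 0.09, adjusted p = 1.08e-05, limma), rose in OGD/R against OGD by 0.94 (SE 0.09, adjusted p = 1.9e-06) and was at 0.03 (adjusted p = 0.825) in OGD/R against control. HDAC3, the catalytic subunit of NCoR complexes, had 47.95, 44.6 and 48.3 FPKM in OGD/R libraries, 31.1, 30.0 and 28.1 in OGD libraries and 50.7, 42.6 and 41.8 in control libraries. Its pattern was like that of HDAC1, with log2 fold changes of -0.58 (SE 0.10, adjusted p = 0.000393), 0.64 (SE 0.10, adjusted p = 7.1e-05) and 0.06 (adjusted p = 0.626), and median-of-ratios scaling ended both calls (adjusted p = 0.0736 and 0.103). HDAC2 had 30.4, 66.0 and 26.9 FPKM in OGD/R libraries, 31.2, 27.7 and 36.04 in OGD libraries and 35.6, 60.7 and 68.1 in control libraries. OGD/R replicate 2 lay far above the other OGD/R libraries, and the groups overlapped. Its only call, in OGD against control (-0.73, SE 0.29, adjusted p = 0.0492), was lost under all 3 other scales and without OGD/R replicate 1, any 1 of the OGD libraries or control replicate 2 or 3 (adjusted p from 0.0564 to 0.15). Without OGD/R replicate 2, HDAC2 was lower in OGD/R than in control (-0.86, adjusted p = 0.0165), against -0.47 (adjusted p = 0.217) with it.

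HDAC8, the remaining class I enzyme, had 12.8, 13.9 and 12.6 FPKM in OGD/R libraries, 9.59, 8.86 and 9.60 in OGD libraries and 17.7, 17.5 and 14.2 in control libraries. No groups overlapped, and OGD/R lay between the others. It fell in OGD by 0.75 (SE 0.11, adjusted p = 0.000197, limma), and was also lower in OGD/R against control (-0.31, SE 0.11, adjusted p = 0.0424). The second call was lost without any 1 library other than control replicate 3 (adjusted p from 0.0519 to 0.129). The higher call in OGD/R against OGD (0.45, adjusted p = 0.00311) turned in direction after quantile normalization (-0.02) and length trend removal (-0.23). With the length trend removed, HDAC8 was called lower there (adjusted p = 0.027).

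The class IIa deacetylases bind MEF2 transcription factors, and HDAC7 is known for its role in endothelial cells. HDAC5 (chr17:44076753-44123641, GRCh38.p14) had the largest fall in OGD of any tested member on the log2(FPKM + 1) scale. By the ratio of mean FPKM in OGD over control it stood at 0.319, against 0.296 for KDM6B. It had 7.02, 7.92 and 8.05 FPKM in OGD/R libraries, 2.54, 3.27 and 3.69 in OGD libraries and 10.6, 12.7 and 6.47 in control libraries. OGD lay below every other library, and OGD/R overlapped control. The log2 fold change was -1.36 (SE 0.20, adjusted p = 0.00018, limma) in OGD against control, at percentile 0.9 of all genes, and 1.06 (SE 0.20, adjusted p = 0.000393) in OGD/R against OGD, a call lost with the length trend removed (adjusted p = 0.0753). Between OGD/R and control it was -0.29 (adjusted p = 0.251), or -0.54 (adjusted p = 0.0145) without control replicate 3. HDAC7 had 14.6, 17.4 and 16.2 FPKM in OGD/R libraries, 5.10, 4.69 and 5.17 in OGD libraries and 11.2, 10.8 and 6.85 in control libraries. Its groups did not overlap, and its log2 fold changes of -0.80 (SE 0.16, adjusted p = 0.00126), 1.51 (SE 0.16, adjusted p = 5.01e-06) and 0.71 (SE 0.16, adjusted p = 0.00383) held under every scale. HDAC7 overlaps SLC48A1. HDAC9 had 2.67, 2.70 and 3.72 FPKM in OGD/R libraries, 2.19, 2.40 and 0.679 in OGD libraries and 0.808, 1.45 and 1.05 in control libraries. OGD/R lay above both other groups, and OGD replicate 3 lay below every control library. HDAC9 was higher in OGD/R against control (0.94, SE 0.24, adjusted p = 0.00788) under every scale. Its higher call in OGD/R against OGD (0.60, adjusted p = 0.0372) was lost without any 1 of the OGD/R libraries or OGD replicate 3 (adjusted p from 0.0527 to 0.193), and turned in direction with the length trend removed (-0.07). In OGD against control it was at 0.34 (adjusted p = 0.239), or 0.66 (adjusted p = 0.0121) without OGD replicate 3. HDAC4 was untested and did not exceed 0.807 FPKM.

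Of the class IIb and IV genes, HDAC6, which deacetylates tubulin, was not called in OGD (-0.21, adjusted p = 0.168, limma), and was called higher in OGD/R against OGD (0.43, adjusted p = 0.00914). That call was lost under all 3 other scales (0.03, -0.12 and -0.16, adjusted p from 0.159 to 0.833), with the direction turned after quantile normalization and length trend removal. HDAC10 and HDAC11 were called lower in OGD and higher in OGD/R against OGD, and none of these calls held under every scale.

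The acetyltransferases place the acetyl groups that the deacetylases remove. Of 8 tested KAT genes, 0 were called higher and 1 lower in OGD (11.3% and 46.7% of all genes), with a median log2 fold change of -0.17 that turned positive under all 3 other scales (0.09, 0.12 and 0.20). After reoxygenation 5 were called higher than in OGD (53.3% of all genes), and 0 of these calls held under every scale (22.1% of all genes). KAT6B is among the 5, and it would not have been tested without its OGD/R values. The gene called lower in OGD was KAT2B (PCAF), an acetyltransferase of the SAGA and ATAC type complexes. KAT2B had 7.15, 8.91 and 8.06 FPKM in OGD/R libraries, 4.64, 3.38 and 4.18 in OGD libraries and 10.3, 11.01 and 8.68 in control libraries. OGD lay below all other libraries, and OGD/R overlapped control. It fell in OGD by 1.12 (SE 0.14, adjusted p = 6.51e-05, limma) and rose in OGD/R against OGD by 0.84 (SE 0.14, adjusted p = 0.000172), the second lost with the length trend removed (adjusted p = 0.109). The value for OGD/R against control was -0.28 (adjusted p = 0.123), and it was called lower there under each of the 3 other scales (adjusted p from 0.00297 to 0.0201). Its paralog KAT2A (GCN5) had 15.3, 18.8 and 19.2 FPKM in OGD/R libraries, 13.1, 14.5 and 14.2 in OGD libraries and 18.9, 16.5 and 12.3 in control libraries. OGD overlapped control, and OGD/R lay just above OGD. KAT2A was at -0.16 (SE 0.14, adjusted p = 0.347), 0.33 (SE 0.14, adjusted p = 0.0588) and 0.16 (SE 0.14, adjusted p = 0.382), and it was called lower in OGD without control replicate 3 (-0.32, adjusted p = 0.0376) and higher in OGD/R against OGD without OGD/R replicate 1 or control replicate 1 or 3 (adjusted p from 0.0183 to 0.0352). KAT5, the catalytic subunit of NuA4 (its locus overlaps RNASEH2C), had 13.7, 14.4 and 15.1 FPKM in OGD/R libraries, 13.5, 14.2 and 13.4 in OGD libraries and 13.15, 9.96 and 11.6 in control libraries. All OGD libraries lay above all control libraries, and OGD/R overlapped OGD. In OGD against control it was at 0.23 (adjusted p = 0.0906) as deposited and was called higher under all 3 other scales (0.58, 0.56 and 0.45, adjusted p from 0.000935 to 0.00234). In OGD/R against OGD it was at 0.06 (adjusted p = 0.615), and it was called lower after median-of-ratios scaling (-0.38, adjusted p = 0.00567) and quantile normalization (-0.36, adjusted p = 0.009). KAT5 was higher in OGD/R against control (0.30, adjusted p = 0.0493) but not under every scale, and KAT6A was higher there (0.51, adjusted p = 0.00706) under every scale.

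As a share of the summed FPKM of all 53 members, KDM2 to KDM8 made up 16.5%, 16.0% and 17.0% in OGD/R libraries, 10.9%, 10.6% and 9.41% in OGD libraries and between 10.9% and 12.3% in control libraries. The OGD/R libraries lay above all others, and OGD touched control. Within the H3K4 enzymes, the summed FPKM of KDM5A, KDM5B and KDM5C over that of all 7 KMT2 and SETD1 genes was 1.10, 1.28 and 1.13 in OGD/R libraries, 1.49, 1.21 and 0.93 in OGD libraries and 1.47, 1.58 and 1.31 in control libraries. With KMT2E left out of the divisor, it was 1.46 to 1.82 in OGD/R libraries, 1.20 to 2.15 in OGD libraries and 2.0 to 2.55 in control libraries. Either ratio was lower in every OGD/R library than in every control library, by a small margin with all 7 genes, and OGD overlapped both groups. Both divisors hold KMT2B, which was tested only because of its OGD/R values. KMT2B averaged 4.61 FPKM in OGD/R libraries, 0.998 in OGD libraries and 0.750 in control libraries. The ratio without KMT2B is not reported here, so the difference from control cannot be read apart from that gene. The 53 members together took 0.108% to 0.130% of the summed FPKM in OGD/R libraries, 0.0494% to 0.0519% in OGD libraries and 0.0806% to 0.0994% in control libraries.

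Transcript length moved with the fold changes. The longest coding transcript had a median of 5924 bases in the 13 tested KDM2 to KDM8 genes and 4272 bases in the 35 other enzymes, against 3357 bases over 10579 genes with a length. Across genes, which are not independent replicates and share libraries, Pearson's r of log2 fold change with log2 length was -0.35, 0.47 and 0.36 over all genes for OGD against control, then OGD/R against OGD, then OGD/R against control. Over the 48 members it was -0.10, 0.37 and 0.40. In the length bin that held most KDM2 to KDM8 genes (6 of 13, between 5663 and 7343 bases), the median of all genes was -0.46, 0.69 and 0.21 in the same comparisons. With the length trend removed, the median of KDM2 to KDM8 was -0.15, 0.52 and 0.33, and that of the other enzymes was -0.02, 0.14 and 0.13.

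**Figure D4:**
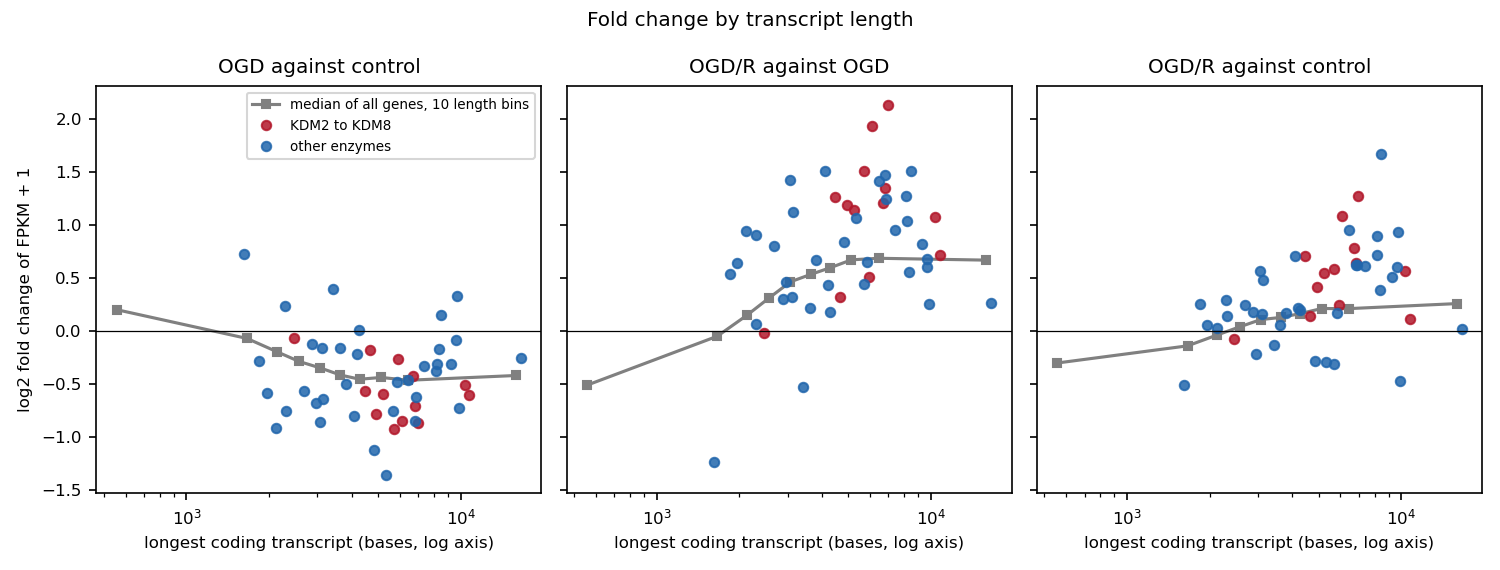
Log2 fold change of FPKM + 1 against longest coding transcript length (bases, log axis) for tested members, with the median of all genes in 10 length bins as a grey line. For OGD/R against OGD the grey line runs from -0.51 in the shortest bin to 0.67 in the longest, and KDM2A at 2.14 and SETD9 at -1.23 lie far from it.

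Genes that work with these enzymes were counted in 9 companion lists, and the number of calls that held under all 3 other scales is given in parentheses. Over all genes tested, 11.3% were called higher (8.93% held) and 46.7% lower (15.6% held) in OGD, 53.3% higher (22.1% held) and 17.4% lower (13.1% held) in OGD/R against OGD, and 24.7% higher (17.4% held) and 16.5% lower (12.3% held) in OGD/R against control. The acetyl-lysine readers bind the mark that KAT enzymes write. Of 11 readers, 0 were called higher and 9 lower in OGD (6 held). In OGD/R against OGD 9 were called higher (8 held) and 1 lower (0 held). In OGD/R against control 7 were higher (7 held) and 2 lower (2 held). The reader medians were -0.74, 1.20 and 0.53 in the 3 comparisons as deposited, beside -0.59, 1.19 and 0.57 in KDM2 to KDM8. Under the other scales they were between -0.44 and -0.30, 0.65 and 0.83, and 0.33 and 0.50. Of 25 tested deacetylase complex partners, 0 were called higher and 17 lower in OGD (5 held), and 18 were called higher (9 held) and 0 lower in OGD/R against OGD. Their median in OGD against control was -0.52 as deposited and between -0.24 and -0.13 under the other scales. In OGD/R against OGD it was 0.82 as deposited and between 0.25 and 0.50.

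Of 20 PRC2 and COMPASS partners, 1 was called higher (1 held) and 15 lower (5 held) in OGD, and 16 were called higher (7 held) and 2 lower (1 held) in OGD/R against OGD. The median in OGD against control was -0.49 as deposited and between -0.20 and -0.16 under the other scales. In OGD/R against OGD it was 0.58 as deposited and between 0.14 and 0.24. HCFC1, a COMPASS subunit, rose by 2.05 (adjusted p = 1.48e-05, limma) in OGD/R against OGD under every scale, while DPY30, also of COMPASS, fell by 0.52 (adjusted p = 0.000139), though not under every scale. Of 30 other acetyltransferases and partners, 1 was called higher (0 held) and 16 lower (4 held) in OGD, and 22 were called higher (12 held) and 2 lower (1 held) in OGD/R against OGD. That list had a median in OGD against control of -0.43 as deposited and between -0.19 and -0.04 under the other scales. In OGD/R against OGD it was 0.84 as deposited and between 0.22 and 0.44. EP300, the p300 acetyltransferase, averaged 3.55 FPKM in OGD/R libraries, 0.423 in OGD libraries and 1.19 in control libraries.

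Of 23 other histone methyltransferases, 2 were called higher (2 held) and 8 lower (3 held) in OGD, and 14 were called higher (5 held) and 2 lower (2 held) in OGD/R against OGD. The higher genes in OGD were the arginine methyltransferases PRMT1, with means of 242 FPKM in OGD libraries and 148 in control libraries, and PRMT5, with means of 41.5 FPKM in OGD libraries and 29.8 in control libraries. The median log2 fold change of this list was -0.28 in OGD against control as deposited, and between -0.03 and 0.05 under the other scales, and in OGD/R against OGD it was 0.56 as deposited and between -0.07 and 0.15. Of 12 tested other JmjC proteins and 2-oxoglutarate oxygenases, 1 was called higher (1 held) and 5 lower (1 held) in OGD, and 6 were called higher (1 held) and 3 lower (3 held) in OGD/R against OGD. The one that held its higher call was PHF2, a JmjC protein that acts on H3K9, which rose by 1.45 (adjusted p = 5.95e-06, limma) in OGD/R against OGD. The list's median there was 0.36 as deposited, and between -0.13 and 0.04 under the other scales, while in OGD against control it was -0.27 as deposited and between 0.06 and 0.12. JMJD4, a lysyl hydroxylase, ran the other way under every scale, higher in OGD against control (0.63, adjusted p = 0.0024) and lower in OGD/R against OGD (-0.56, adjusted p = 0.00294).

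The sirtuins are deacetylases that depend on NAD. Of 7 sirtuins, 0 were called higher and 2 lower in OGD by limma (SIRT1 and SIRT2, 0 held), and 0 were called higher and 2 lower in OGD/R against OGD (1 held), where 1 (SIRT1) was higher at an unadjusted p under 0.05. The sirtuin median in OGD against control was -0.15 as deposited and between -0.08 and 0.20 under the other scales, and in OGD/R against OGD it was 0.20 as deposited and at or below 0 under the other scales. No sirtuin was called in OGD/R against control by limma, where 0 were higher and 3 lower at an unadjusted p under 0.05. Of 6 DNA methylation genes, 0 were called higher and 5 lower in OGD (1 held), and 5 were called higher (3 held) and 0 lower in OGD/R against OGD. Their medians were -0.51, 1.10 and 0.62 in the 3 comparisons as deposited. Under the other scales they were between -0.24 and -0.16, 0.45 and 0.80, and 0.39 and 0.52. DNMT1, the maintenance methyltransferase, averaged 42.3 FPKM in OGD/R libraries, 10.7 in OGD libraries and 16.5 in control libraries. Of 16 genes of cofactor supply, 2 were called higher (1 held) and 11 lower (5 held) in OGD, and 8 were called higher (2 held) and 3 lower (2 held) in OGD/R against OGD, where the share called higher was near that over all genes. The median of that list in OGD/R against OGD was 0.29 as deposited and between -0.09 and 0.06 under the other scales. AHCY, which clears S-adenosylhomocysteine after methyl transfer, was the gene whose higher call in OGD held (0.51, adjusted p = 0.000214). In the other directions with 0 calls in these lists, 0 genes had an unadjusted p under 0.05.

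Over the 9 libraries, the genes outside the members whose log2 values were most like those of HDAC5 included CREBRF (Pearson's r = 0.987) and GNB2, METTL7A and PHKB (r = 0.986 each). Among the members HDAC8 (r = 0.947) and KAT2B (r = 0.936) came closest. These values describe 9 libraries of 3 groups, and differences between the groups enter them.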

How the data were processed

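RNA was measured in 9 hCMEC/D3 libraries (3 per group), made with a SMARTer mRNA kit per the labels' protocols. Groups and replicate numbers come from the sample titles. The authors deposited 1 table of FPKM values, on genome build GRCh38 per the submitters' processing notes. The sources used here do not give the aligner, the quantification tool, the annotation or the use of strand. Whole reads could not be recovered from low FPKM values, so depth is unknown and no counting interval is given.

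A gene needed 1 FPKM or more in 3 or more of 9 libraries. Tests used limma 3.58.1 (R 4.3.3) on log2(FPKM + 1) (lmFit, eBayes with an intensity trend), in 1 fit of 3 groups with 6 residual and 6.33 prior degrees of freedom, no scaling between libraries, 2-sided, with Benjamini-Hochberg adjustment over 10818 genes and a threshold of 0.05. The code was tested on simulated data. Transcript length is that of the longest coding transcript in GENCODE for GRCh38, matched by symbol for 97.4% of listed genes. Locations, overlaps and promoters are from RefSeq (GRCh38.p14). Of 53 members, 49 matched a promoter window. Plots were made in Python 3.11.15 with matplotlib 3.10.9.

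Members and lists were chosen with earlier results of these data known. Genes named with values in every library are 17 members named outright and, in each comparison, up to 5 called members with the largest fold change in each direction and at least 2 FPKM in the higher group, 25 in all, beside untested members and KAT5, which was added after its values were seen. Other genes have means or fold changes. Companion genes are among the 2 largest called changes in each direction and list, and some genes that these rules name are not reported here. Alternatives were a pseudocount of 0.1, no expression filter, 3 other scales, a replicate block, and each library left out in turn.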

Additional observations from a re-analysis of the deposited data

How the results depend on the processing

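After median-of-ratios scaling, OGD against control gave 19 lower calls over all members and 10 in the other enzymes, and OGD/R against OGD gave 17 higher calls in the other enzymes. After quantile normalization, OGD against control gave 13 lower calls over all members, 5 in KDM2 to KDM8 and 8 in the others. OGD/R against OGD then gave 25 higher and 6 lower over all members, 2 lower in KDM2 to KDM8, and 16 higher and 4 lower in the others, and OGD/R against control gave 4 lower, all in the others. With the length trend removed, OGD against control gave 5 higher and 13 lower over all members, 1 and 4 in KDM2 to KDM8, and 4 and 9 in the others. OGD/R against OGD then gave 23 higher and 5 lower over all members, 1 lower in KDM2 to KDM8, and 15 higher and 4 lower in the others, and OGD/R against control gave 4 lower, all in the others. No pairing by replicate number was seen, though 3 libraries per group cannot exclude it. Deviations of libraries with the same number correlated between -0.2 and 0.148, and those with different numbers between -0.242 and 0.37. With a replicate block, OGD/R against control gave 1 lower call, among the others. The block together with length trend removal gave 5 higher and 10 lower over all members, 2 lower in KDM2 to KDM8, and 5 higher and 8 lower in the others in OGD against control, and 23 higher over all members, 1 lower in KDM2 to KDM8 and 15 higher in the others in OGD/R against OGD. The cause of these changes was not tested.

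Directions that turned were, in OGD against control, KDM4C at 0.256 with length trend removed and KDM6B at 0.014 with it, alone or with the block. In OGD/R against OGD they were KDM4C at -0.032 after median-of-ratios scaling, -0.258 after quantile normalization and -0.308 with length trend removed (with or without the block), HDAC8 at -0.021 after quantile normalization and -0.231 with length trend removed, KDM6A at -0.049 and -0.173, and HDAC9 at -0.071 with length trend removed, the last 3 genes with the same values under the block.

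With each library left out in turn, OGD against control gave 1 to 3 higher and 21 to 31 lower over all members, 8 to 10 lower in KDM2 to KDM8, and 1 to 3 higher and 13 to 21 lower in the others. OGD/R against OGD gave 31 to 40 higher and 2 lower over all members, 9 to 12 higher in KDM2 to KDM8 and 22 to 28 higher in the others. OGD/R against control gave 14 to 24 higher and 1 to 3 lower over all members, 5 to 9 higher in KDM2 to KDM8, and 9 to 16 higher and 1 to 3 lower in the others. The difference between class medians, KDM2 to KDM8 minus the others, kept its sign under every alternative, at -0.276 to -0.112, 0.435 to 0.549 and 0.23 to 0.372 over the left-out libraries. A pseudocount of 0.1 moved no count of member calls by over 1.5 times, nor did testing without the expression filter. Depth, strand use and shared reads limit what low or overlapping genes can show.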
